A study of Homo sapiens with 4 samples.

Results

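The heat shock proteins and their co-chaperones were examined in H1299 cells in which TTC28 had been targeted, against wild-type H1299 cells. Members were the protein-coding rows of the deposited table whose symbols begin with HSPA, HSPB, HSPD, HSPE, HSPH, HSP90A, DNAJA, DNAJB, DNAJC or BAG, together with HSF1, HSF2, STIP1 and ST13. The chaperones HSPA5, DNAJB9, DNAJB11 and DNAJC3 of the endoplasmic reticulum (ER) and the unrelated HSPBAP1 were left out by name. This rule used symbols and gene type, not expression, and gave 82 of the 58735 genes in the table. Although most members act in the cytosol and nucleus, the rule also took in mitochondrial chaperones (HSPA9, HSPD1, HSPE1, DNAJA3) and ER members such as DNAJC10.

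H1299 is an established human non-small cell lung cancer line. RNA was sequenced from 2 libraries of TTC28 knockout cells, made by CRISPR/Cas9 editing and called TTC28 KO here, and 2 libraries of wild-type cells (WT). All 4 came from cells without drug treatment, grown in the same medium with serum. The labels do not say how many knockout clones were used or that replicates came from separate cultures, so p-values measure only the spread between these libraries, which may be technical. In bulk RNA, fewer cells of a type and less RNA per cell cannot be told apart.

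Heat shock proteins hold other proteins in a foldable state. HSP70 chaperones bind short stretches of unfolded chains in a cycle driven by ATP, J-domain proteins (the DNAJ families) bring clients and start the hydrolysis of ATP, and exchange factors (the BAG proteins, HSPBP1 and the HSP110 family) release the ADP. HSP90 completes the folding of kinases and steroid receptors that HSP70 hands over through STIP1, and small heat shock proteins such as HSPB1 hold unfolding proteins without ATP. Under heat or other proteotoxic stress the transcription factor HSF1 binds heat shock elements, inverted repeats of the unit GAA, and raises the transcripts of the inducible members. Cancer cells are known to carry high levels of several of these proteins.

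The libraries held 28885443 and 25120500 counts in TTC28 KO and 25808423 and 27043491 in WT. TTC28 was at 2.96 and 2.99 FPKM in TTC28 KO and at 4.88 and 5.44 FPKM in WT, and fell by 0.79 on the log2 scale (SE 0.0764, adjusted p = 2.78e-06, by edgeR with Benjamini-Hochberg adjustment). The transcript was lower but present, and gene counts cannot show the edit itself. The antisense gene TTC28-AS1, which shares 7.38% of the exonic bases of TTC28, had 412 and 359 counts in TTC28 KO and 243 and 258 in WT. FPKM divides a count by gene length and library size. Mitochondrially encoded genes took 8.61% and 10.16% of the counts in TTC28 KO and 6.07% and 5.87% in WT. Of the markers checked, VIM was high (353 to 366 FPKM in TTC28 KO, 300.0 to 316 FPKM in WT), while the lung epithelial genes NKX2-1, SFTPB and SFTPC, the leukocyte gene PTPRC and the endothelial gene PECAM1 lay under 0.1 FPKM in every library, and NAPSA, EPCAM and COL1A1 under 0.5 FPKM. Of the lung epithelial genes checked, none therefore marked these cells as lung.

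Of the 82 members, 59 reached at least 1 FPKM in at least 2 libraries and were tested, and 23 did not. In the fit over all 13079 tested genes (edgeR, quasi-likelihood), 18 members rose and 10 fell in TTC28 KO at an adjusted p under 0.05, while 31 did not pass. These 28 calls are 47.5% of the tested members, close to the 50.3% of all tested genes that were called. Members higher in TTC28 KO made up 30.5%, against 25.1% of all tested genes, and members lower made up 16.9%, against 25.2%. Most changes were small: 10 of the 59 tested members (16.9%) were both called and changed by 0.5 or more on the log2 scale, against 21.7% of all tested genes. For 46 of the 59 (78.0%) the FPKM of TTC28 KO and WT did not overlap, against 75.5% of all tested genes. Among tested protein-coding genes that share was 78.7%. The median log2 fold change was 0.04 over the tested members and -0.00 over all tested genes. No test was made over the members as a list.

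The split between rises and falls depended on the scaling. With libraries scaled by the sum of counts per gene length, as TPM does (per-length-sum scaling), the median of all tested genes shifted to -0.17. Of the 59 tested members, 9 were then called higher and 22 lower, against 14.7% of all genes higher and 40.6% lower. The rises of DNAJB1, DNAJC4, DNAJC7, DNAJC14, DNAJC18, HSPA1A, HSPA2, HSPH1 and ST13 no longer passed under that scaling. Mitochondrially encoded genes took 30.0% and 34.5% of the FPKM in TTC28 KO, against 22.4% and 22.1% in WT, and their part in this shift was not tested. No member called in the main scaling was called in the opposite direction under any of the 14 alternative settings. Leaving out WT replicate 1 or WT replicate 2 reduced the falls to 6 in each case, since BAG4, DNAJB6, HSF1 and HSPA4 no longer passed.

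Transcript levels of the members spanned a wide range. Per gene length, the 6 most abundant were HSP90AB1, HSP90AA1, HSPB1, HSPA8, HSPD1 and HSPA9, which together held 75.0% of the members' summed FPKM in both TTC28 KO libraries, against 72.6% and 72.4% in WT. The summed FPKM of all members was 3538 and 3419 in TTC28 KO and 3087 and 3096 in WT. As a share of all FPKM these sums were 1.06% and 1.01% in TTC28 KO against 1.02% and 1.04% in WT, so the groups overlapped. Without the mitochondrially encoded genes in the total, the shares were 1.52% and 1.54% in TTC28 KO and 1.32% and 1.33% in WT, and the groups did not overlap.

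**Figure D1:**
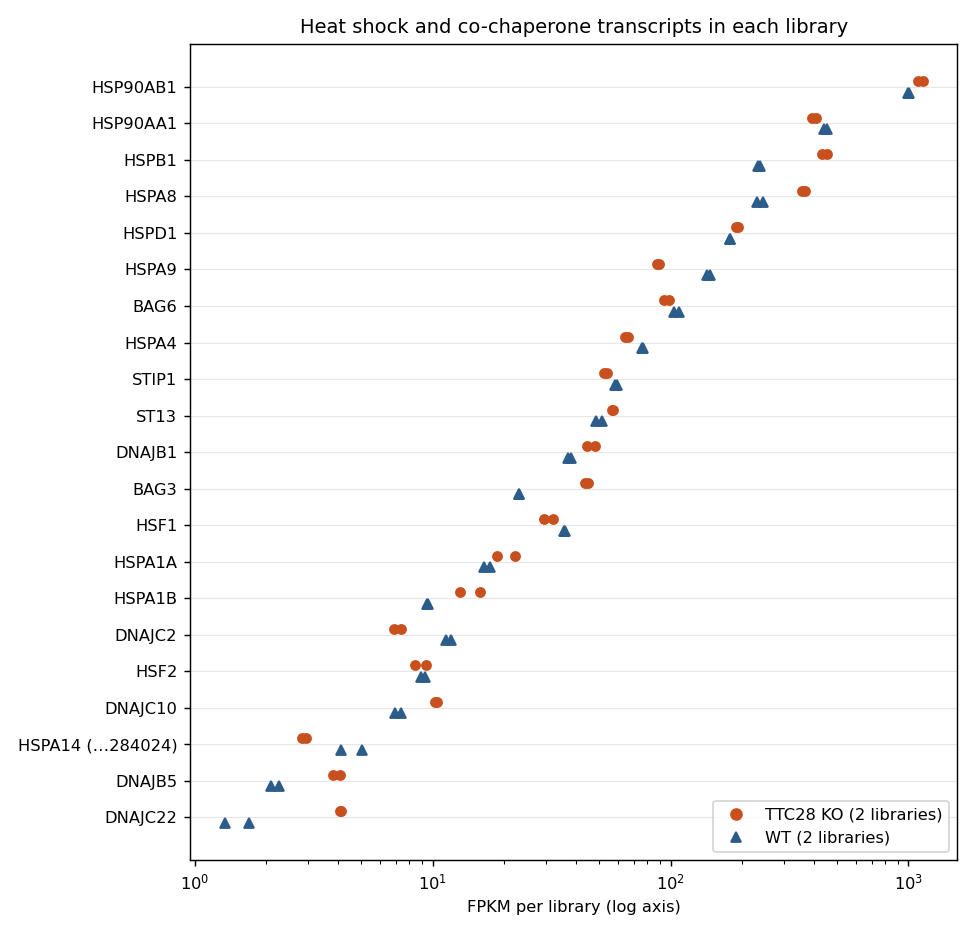
FPKM on a log axis in each library for the 21 members whose values are given in full, ordered by mean level. Circles are the 2 TTC28 KO libraries and triangles the 2 WT libraries. HSPB1, HSPA8 and BAG3 lay higher in TTC28 KO with no overlap between groups, HSPA9 and DNAJC2 lay lower, and the groups of HSF2 overlapped.

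Promoter sequences are shown for chosen members, so that the letters HSF1 is known to bind can be seen. Sequences are those of RefSeq (build GRCh38.p14), which matched 69 member symbols. Each line gives the 250 bases before one listed start, 5′ to 3′ on the gene's strand, with matches to the heat shock element in capitals. The letters searched were the 2-unit forms GAANNTTC and TTCNNGAA, each its own reverse complement, and the 3-unit forms GAANNTTCNNGAA and TTCNNGAANNTTC, which are reverse complements of one another and contain the 2-unit forms. Where RefSeq lists several starts, the window with the most matches is shown. The first 5 genes rose, the pair of HSP90 genes did not pass, and HSPA9 fell. Those 5 are all the members that rose and held a match, so the choice does not show how often rises go with matches. BAG3 and DNAJB5, which rose without a match, and DNAJB6, which fell and held a 3-unit match, are not shown.
HSPA8, chr11:123062137-123062386, minus strand: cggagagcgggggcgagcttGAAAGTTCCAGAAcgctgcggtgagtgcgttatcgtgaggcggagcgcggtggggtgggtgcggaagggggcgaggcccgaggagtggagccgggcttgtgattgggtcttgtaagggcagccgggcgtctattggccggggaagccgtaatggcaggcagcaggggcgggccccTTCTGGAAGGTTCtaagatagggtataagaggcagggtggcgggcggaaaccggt
HSPB1, chr7:76302423-76302672, plus strand: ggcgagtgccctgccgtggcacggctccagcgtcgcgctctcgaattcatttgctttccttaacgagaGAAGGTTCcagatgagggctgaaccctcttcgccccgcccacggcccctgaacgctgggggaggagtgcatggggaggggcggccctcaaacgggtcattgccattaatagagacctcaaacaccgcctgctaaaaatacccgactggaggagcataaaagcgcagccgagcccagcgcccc
DNAJB1, chr19:14518398-14518647, minus strand: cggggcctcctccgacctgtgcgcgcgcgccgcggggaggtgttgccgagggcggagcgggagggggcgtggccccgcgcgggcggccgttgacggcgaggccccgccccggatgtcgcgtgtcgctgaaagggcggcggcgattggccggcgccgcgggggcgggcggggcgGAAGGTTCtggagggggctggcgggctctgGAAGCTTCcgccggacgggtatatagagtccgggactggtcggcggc
HSPA1A, chr6:31815293-31815542, plus strand: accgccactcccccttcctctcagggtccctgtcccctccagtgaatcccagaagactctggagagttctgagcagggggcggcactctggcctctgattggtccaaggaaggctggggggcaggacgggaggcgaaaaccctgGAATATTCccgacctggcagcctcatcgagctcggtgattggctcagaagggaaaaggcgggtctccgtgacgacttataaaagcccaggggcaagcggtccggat
HSPA1B, chr6:31827488-31827737, plus strand: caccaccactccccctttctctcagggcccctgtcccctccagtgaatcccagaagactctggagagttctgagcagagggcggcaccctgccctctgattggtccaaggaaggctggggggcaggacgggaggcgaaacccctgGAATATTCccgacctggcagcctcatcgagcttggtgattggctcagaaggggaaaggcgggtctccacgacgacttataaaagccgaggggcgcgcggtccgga
HSP90AB1, chr6:44247693-44247942, plus strand: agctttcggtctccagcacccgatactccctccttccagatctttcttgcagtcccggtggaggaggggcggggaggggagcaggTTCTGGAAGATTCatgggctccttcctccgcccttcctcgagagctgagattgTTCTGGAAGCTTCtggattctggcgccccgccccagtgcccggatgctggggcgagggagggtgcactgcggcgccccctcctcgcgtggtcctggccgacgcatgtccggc
HSP90AA1, chr14:102087045-102087294, minus strand: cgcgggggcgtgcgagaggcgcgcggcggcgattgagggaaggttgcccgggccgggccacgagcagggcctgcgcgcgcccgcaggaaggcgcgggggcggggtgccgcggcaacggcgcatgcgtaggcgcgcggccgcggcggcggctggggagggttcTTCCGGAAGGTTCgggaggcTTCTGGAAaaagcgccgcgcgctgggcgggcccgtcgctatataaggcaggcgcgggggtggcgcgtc
HSPA9, chr5:138575402-138575651, minus strand: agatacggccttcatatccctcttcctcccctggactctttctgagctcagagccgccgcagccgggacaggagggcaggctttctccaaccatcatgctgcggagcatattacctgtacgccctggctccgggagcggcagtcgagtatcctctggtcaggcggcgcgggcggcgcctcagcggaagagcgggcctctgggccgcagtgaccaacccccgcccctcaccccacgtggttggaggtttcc

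HSPA8 held 2 of the 3-unit elements, whose first bases lay 230 and 55 bases before the start, and HSP90AB1 also held 2. HSP90AA1 held 1, together with a separate 2-unit match. HSPB1, HSPA1A and HSPA1B each held 1 of the 2-unit matches and DNAJB1 held 2, while HSPA9 and BAG3 had none of these letters in the window. Over all starts, 21 of the 69 matched members (30.4%) held a 2-unit match, against 14.0% of all 27305 genes in the promoter table. Among tested genes with a sequence, the match was found in 13 of 50 members (26.0%) and in 11.6% of all 8957. A 3-unit match was found in 6 members (8.70%), namely DNAJB6, HSP90AA1, HSP90AB1, HSPA6, HSPA8 and HSPD1, against 0.557% of all genes in the table. By outcome, 5 of the 16 matched members that rose held a 2-unit match, as did 1 of the 7 that fell, 7 of the 27 that did not pass and 8 of the 19 that were not tested. A match is a run of letters and was not examined for binding.

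Of the 8 tested HSP70 rows, HSPA8, HSPA1A, HSPA1B and HSPA2 rose, the mitochondrial HSPA9 and an HSPA14 row fell, and 2 did not pass. Calls made up 75.0% of these rows, against 50.3% of all tested genes, of which 25.1% rose and 25.2% fell. The HSP70 rises came to 2 under total-count scaling and to 2 under per-length-sum scaling, while the falls stayed at 2. HSPA8, the constitutive cytosolic HSP70 also called HSC70, was at 369 and 357 FPKM in TTC28 KO and at 232 and 244 FPKM in WT. Both knockout libraries lay above both WT libraries, and the log2 fold change was 0.62 (SE 0.0690, adjusted p = 1.01e-05), or 1.53-fold. HSPA9, the HSP70 of the mitochondrial matrix known as mortalin, was at 87.5 and 89.4 FPKM in TTC28 KO against 147 and 143 FPKM in WT. It fell by 0.71 on the log2 scale (SE 0.0667, adjusted p = 2.19e-06), which is 1.64-fold lower. The 2 genes moved in opposite directions within each library, so that the FPKM ratio of HSPA8 to HSPA9 was 4.11 ± 0.155 in TTC28 KO and 1.64 ± 0.0915 in WT (SD, n = 2 each). A ratio within a library does not depend on how libraries are scaled.

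HSPA1A and HSPA1B, neighbours on chromosome 6 that encode the stress-inducible HSP70, were far below HSPA8 in every library. HSPA1B was at 15.8 and 13.0 FPKM in TTC28 KO and at 9.52 and 9.54 FPKM in WT, with a log2 fold change of 0.60 (SE 0.0972, adjusted p = 0.000209). HSPA1A was at 22.2 and 18.7 FPKM in TTC28 KO and at 17.4 and 16.4 FPKM in WT, with a log2 fold change of 0.28 (SE 0.0877, adjusted p = 0.0169). Neither pair of groups overlapped, and for both genes knockout replicate 1 was the highest library. The split between them is uncertain: 72.6% of the 50-base words of the longest HSPA1A transcript also occur in HSPA1B, so that reads can be assigned to either. Their summed FPKM, which does not depend on that split, was 38.0 and 31.7 in TTC28 KO against 26.9 and 26.0 in WT. HSPA1A no longer passed without TTC28 KO replicate 1 or without WT replicate 2. HSPA6, the most strictly stress-inducible HSP70, had 20 and 2 counts in TTC28 KO and 3 and 5 in WT, with most of its counts in a single knockout library.

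Of the other HSP70 genes, HSPA2, which is abundant in testis, rose by a log2 fold change of 0.33 (SE 0.117, adjusted p = 0.0326) at 2.64 and 2.51 FPKM in TTC28 KO and 1.86 and 2.25 FPKM in WT. HSPA2 passed in 7 of 13 alternatives, and not in DESeq2, without TTC28 KO replicate 1 (adjusted p = 0.0814) or without WT replicate 1 (0.316). HSPA13 did not pass. Without TTC28 KO replicate 1 the HSP70 rises therefore came to 2. The symbol HSPA14 stands on 2 rows of the table that share 460 exonic bases on the same strand of chromosome 10. The row ENSG00000284024 was at 2.94 and 2.83 FPKM in TTC28 KO against 4.12 and 5.04 FPKM in WT, with a log2 fold change of -0.66 (SE 0.110, adjusted p = 0.000246). The row ENSG00000187522 was at 4.10 and 4.91 FPKM in TTC28 KO and 4.43 and 4.58 FPKM in WT, with overlapping groups and an adjusted p of 0.994. HSPA14 is a ribosome-bound HSP70. The shared bases are 17.4% of the exonic bases of ENSG00000187522 and 9.34% of those of ENSG00000284024, so most of each row is its own. As only ENSG00000284024 was called, the change of HSPA14 is uncertain.

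The HSP110 family, whose members act as exchange factors for HSP70, went both ways. HSPA4, the most abundant of them, was at 64.2 and 66.2 FPKM in TTC28 KO against 76.1 and 76.3 FPKM in WT, with a log2 fold change of -0.22 (SE 0.0613, adjusted p = 0.00827). HSPH1, the heat-inducible one, was at 16.3 and 16.4 FPKM in TTC28 KO against 13.2 and 13.4 FPKM in WT. Its log2 fold change was 0.30 (SE 0.0596, adjusted p = 0.000913), but it did not pass under per-length-sum scaling (0.14, adjusted p = 0.108). HSPA4 did not pass without WT replicate 1 (adjusted p = 0.0540) or WT replicate 2 (0.0506). HSPA4L did not pass, at 2.75 and 2.84 FPKM in TTC28 KO and 2.64 and 2.71 FPKM in WT.

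The 2 cytosolic HSP90 genes were the most abundant members and neither passed the test. HSP90AB1, the constitutive form, was at 1146 and 1099 FPKM in TTC28 KO and at 994 and 1003 FPKM in WT, with a log2 fold change of 0.17 (SE 0.0734, adjusted p = 0.0675). HSP90AA1, the inducible form, was at 408 and 394 FPKM in TTC28 KO and at 453 and 439.7 FPKM in WT, with a log2 fold change of -0.15 (SE 0.0715, adjusted p = 0.0966). Under per-length-sum scaling HSP90AB1 came to 0.01 (adjusted p = 0.967) and HSP90AA1 to -0.32 (adjusted p = 0.00378). Groups did not overlap for 75.5% of all tested genes, nor for these 2, which differed in opposite directions. The FPKM ratio of HSP90AB1 to HSP90AA1 was accordingly 2.81 and 2.79 in TTC28 KO and 2.20 and 2.28 in WT. DESeq2 called both genes, HSP90AB1 higher and HSP90AA1 lower, and HSP90AB1 also passed without TTC28 KO replicate 2 (adjusted p = 0.0473). Other genes hold 18.8% of the 50-base words of HSP90AB1 and 21.4% of those of HSP90AA1, so some reads are shared.

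The mitochondrial chaperonin HSPD1 did not follow HSPA9. HSPD1, which forms the folding chamber of the mitochondrial matrix, was at 189 and 192 FPKM in TTC28 KO and at 177 and 178 FPKM in WT, with a log2 fold change of 0.10 (SE 0.0641, adjusted p = 0.195). The HSPA9 to HSPD1 ratio was 0.462 and 0.465 in TTC28 KO and 0.830 and 0.801 in WT. HSPE1, the lid of that chamber, was at 18.1 and 13.5 FPKM in TTC28 KO and 15.9 and 13.2 FPKM in WT, with overlapping groups. It was called higher when TTC28 KO replicate 2 was left out (log2 fold change 0.31). Its level is uncertain, since 52.9% of its 50-base words occur in other genes, among them HSPD1 on the opposite strand.

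HSPB1, the small heat shock protein HSP27, rose. It was at 454 and 432 FPKM in TTC28 KO and at 237 and 233 FPKM in WT, with a log2 fold change of 0.92 (SE 0.0642, adjusted p = 1.79e-07), or 1.89-fold. Of the 8 small heat shock genes 6 were too low to test. HSPB11, which despite its name is a subunit of intraflagellar transport, did not pass. HSPB8, the partner of BAG3, had 68 and 56 counts in TTC28 KO and 46 and 38 in WT, a ratio of 1.51 between the scaled sums of counts (exact 95% Clopper-Pearson bounds 1.14 and 2.02, for counting error only). HSPB8 did not pass with a filter of 0.1 FPKM (adjusted p = 0.0938) or with no filter (0.0793).

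**Figure D2:**
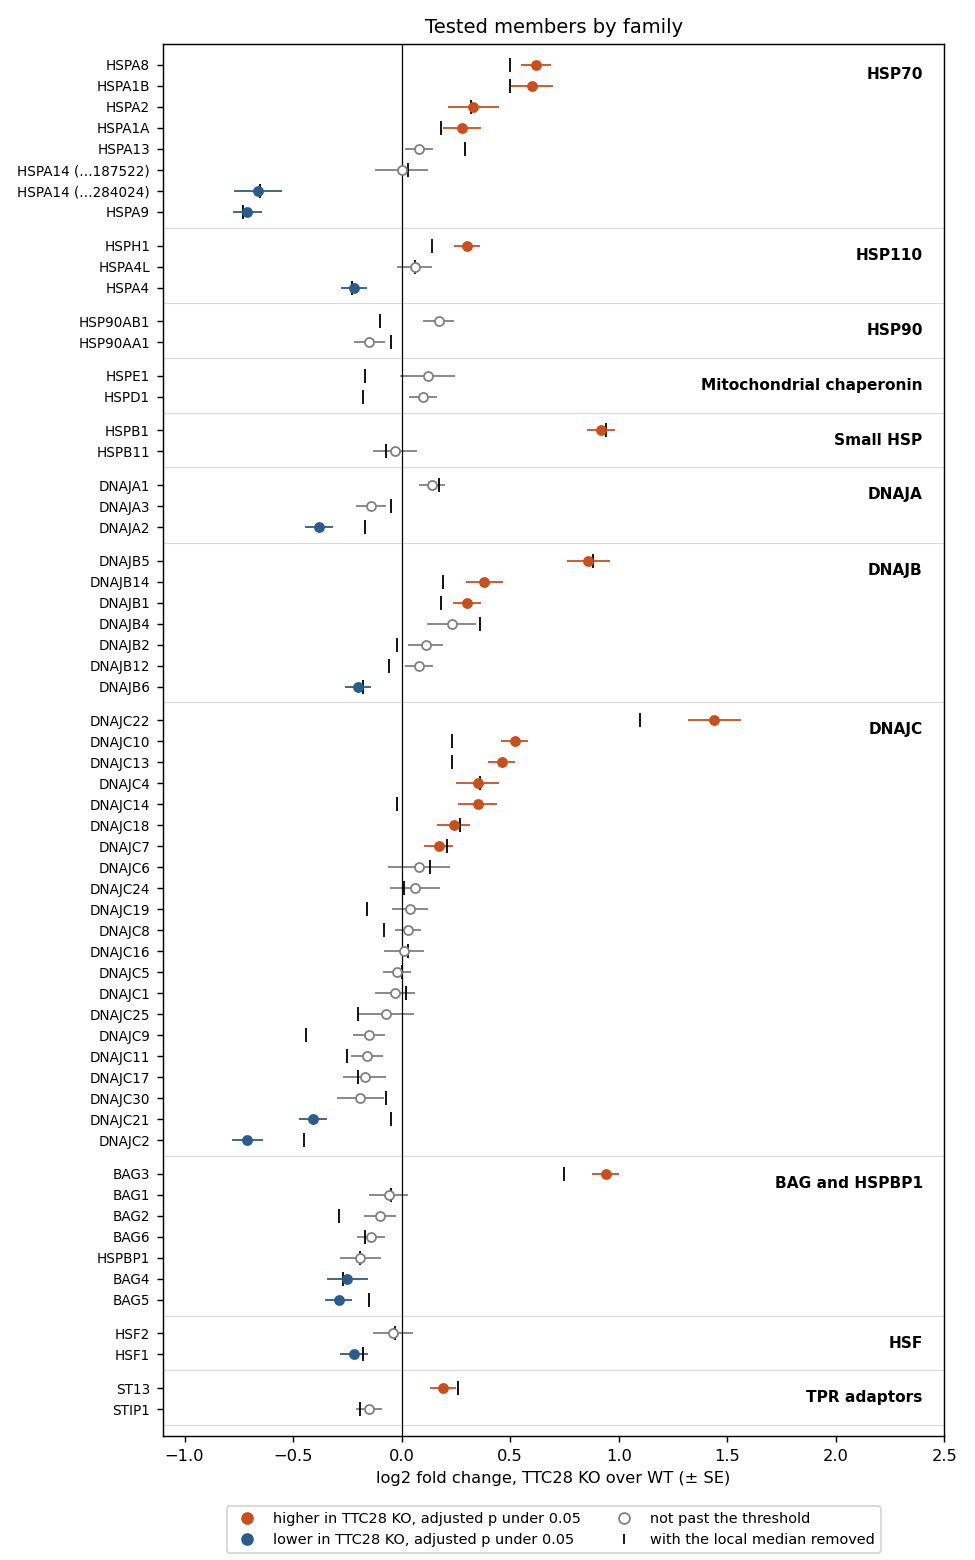
Log2 fold change of TTC28 KO over WT with its SE for the 59 tested members, grouped by family. Filled points passed the threshold, open points did not, and black ticks give the value with the local median removed. DNAJC22 (1.44), BAG3 (0.94) and HSPB1 (0.92) lie farthest to the right, HSPA9 and DNAJC2 (both -0.71) farthest to the left.

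The J-domain proteins were the most numerous, with 41 members, of which 31 were tested, 10 rose, 4 fell and 17 did not pass. The calls made up 45.2% of those tested, against 50.3% of all tested genes. Rises made up 32.3%, against 25.1%, and falls 12.9%, against 25.2%. In the DNAJA class, which resembles bacterial DnaJ most closely, DNAJA2 fell, at 13.2 and 14.0 FPKM in TTC28 KO against 18.0 and 17.4 FPKM in WT (log2 fold change -0.38, SE 0.0660, adjusted p = 0.000380). DNAJA1 and the mitochondrial DNAJA3 did not pass. Among 7 tested DNAJB genes 3 rose and 1 fell, or 57.1% called, against 50.3% of all tested genes. DNAJB1, the main heat-inducible HSP40, was at 48.1 and 44.6 FPKM in TTC28 KO and 38.3 and 37.0 FPKM in WT. Its log2 fold change was 0.30 (SE 0.0633, adjusted p = 0.00140). It did not pass under per-length-sum scaling (0.14, adjusted p = 0.121), and 5.75% of its exonic bases lie opposite TECR. DNAJB5, a less abundant relative of DNAJB1, was at 4.09 and 3.80 FPKM in TTC28 KO against 2.10 and 2.26 FPKM in WT, and its log2 fold change of 0.86 (SE 0.0987, adjusted p = 1.24e-05) was the largest of that class. DNAJB14, a J-domain protein of the ER membrane, rose by a log2 fold change of 0.38, and DNAJB6, which suppresses aggregation of polyglutamine proteins, fell by 0.20 on that scale. DNAJB6 did not pass without WT replicate 1 (adjusted p = 0.0687) or WT replicate 2 (0.0838).

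Of 21 tested DNAJC genes 7 rose, 2 fell and 12 did not pass. That is 42.9% called, against 50.3% of all tested genes. DNAJC22, whose Drosophila homolog wurst takes part in endocytosis, had the largest log2 fold change of the 59 tested members. It was at 4.13 and 4.09 FPKM in TTC28 KO and at 1.34 and 1.69 FPKM in WT, with a log2 fold change of 1.44 (SE 0.121, adjusted p = 8.66e-07), or 2.72-fold. DNAJC10, the ER disulfide reductase ERdj5, was at 10.2 and 10.4 FPKM in TTC28 KO and at 6.94 and 7.37 FPKM in WT, with a log2 fold change of 0.52 (SE 0.0615, adjusted p = 1.49e-05). DNAJC2, which anchors HSPA14 at the ribosome, was at 6.88 and 7.37 FPKM in TTC28 KO and at 11.9 and 11.4 FPKM in WT, and fell by 0.71 on the log2 scale (SE 0.0715, adjusted p = 4.12e-06). It shares 9.57% of its exonic bases with PMPCB on the opposite strand, and whether counting used strand is not stated, so their reads cannot be told apart there. DNAJC21, a factor of ribosome maturation, also fell, at 7.12 and 7.49 FPKM in TTC28 KO against 9.53 and 9.88 FPKM in WT. The other rises were those of the endosomal DNAJC13 (log2 fold change 0.46), DNAJC4 (0.35), DNAJC14 (0.35), DNAJC18 (0.24) and DNAJC7 (0.17), a protein with both a J domain and tetratricopeptide repeats. Most of these depended on single libraries, and the DNAJC rises came to 4 without WT replicate 1 and to 4 without WT replicate 2. DNAJC13 passed in all 14 alternatives. DNAJC7 passed in 6 of 14, and not in DESeq2 or without TTC28 KO replicate 1, WT replicate 1 or WT replicate 2. DNAJC18 passed in 9 of 14, and not without TTC28 KO replicate 2, WT replicate 1 or WT replicate 2. DNAJC4 did not pass without TTC28 KO replicate 1 or WT replicate 2, nor DNAJC14 without WT replicate 1. Of the same genes, DNAJC14 shares 23.2% of its exonic bases with AC023055.1 on the same strand. It also shares 21.9% with ORMDL2 and 12.9% with TMEM198B, both on the opposite strand. DNAJC4 shares 10.6% with NUDT22 on the same strand and DNAJC7 shares 5.16% with NKIRAS2 on the opposite strand, so reads there are uncertain. Other genes hold 54.4% of the 50-base words of DNAJC14, 23.2% of those of DNAJC4 and 27.8% of those of DNAJC7.

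Of the BAG genes and HSPBP1, 7 in all, BAG3 rose, BAG4 and BAG5 fell and 4 did not pass. Calls made up 42.9% of them, against 50.3% of all tested genes. BAG3, which links HSP70 and small heat shock proteins to selective autophagy, was at 44.8 and 43.7 FPKM in TTC28 KO and at 23.1 FPKM in both WT libraries. Its log2 fold change of 0.94 (SE 0.0618, adjusted p = 1.02e-07) amounts to 1.92-fold, and the spread between replicates was small in both groups (44.2 ± 0.817 FPKM in TTC28 KO and 23.1 ± 0.0109 FPKM in WT, SD, n = 2 each). BAG5 was at 14.7 and 15.0 FPKM in TTC28 KO against 17.9 and 18.6 FPKM in WT (log2 fold change -0.29), and BAG4 had a log2 fold change of -0.25 (adjusted p = 0.0431). BAG4 did not pass without TTC28 KO replicate 2 (adjusted p = 0.124), WT replicate 1 (0.231) or WT replicate 2 (0.120). BAG6, a large protein that guards tail-anchored and misfolded proteins, was the most abundant of this group, at 98.2 and 93.7 FPKM in TTC28 KO and 103 and 109 FPKM in WT, and did not pass (log2 fold change -0.14, adjusted p = 0.0846). BAG1, BAG2 and HSPBP1 did not pass either. BAG1, which couples HSP70 to the proteasome, was at 7.19 and 6.10 FPKM in TTC28 KO and 6.54 and 7.38 FPKM in WT, so the BAG3 to BAG1 ratio was 6.24 and 7.16 in TTC28 KO against 3.53 and 3.13 in WT.

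**Figure D3:**
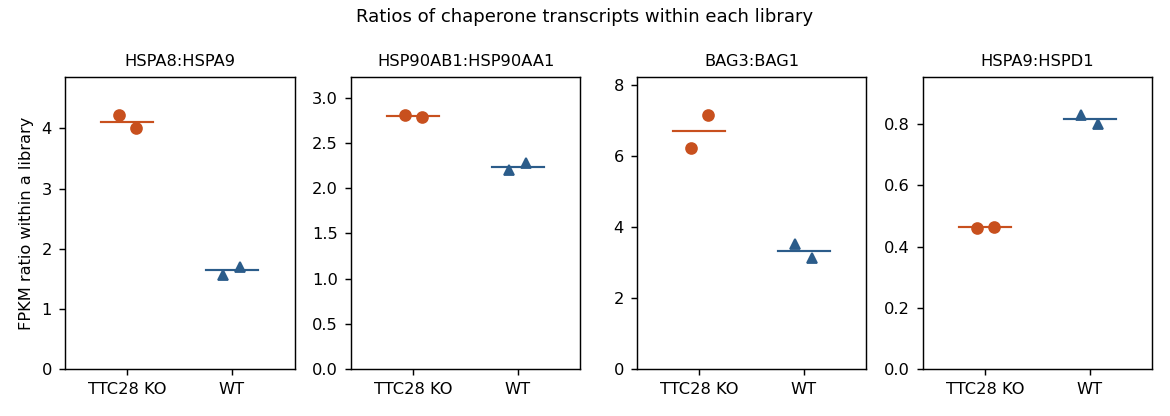
Ratio of FPKM between 2 members within each library, for HSPA8 to HSPA9, HSP90AB1 to HSP90AA1, BAG3 to BAG1 and HSPA9 to HSPD1. Circles are TTC28 KO libraries, triangles WT libraries and lines group means, which are 4.11 in TTC28 KO and 1.64 in WT for HSPA8 to HSPA9. In none of the 4 panels do the groups overlap. The pairs were chosen with the values of their genes known, so this adds no support. No background share was computed for ratios.

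HSF1, the regulator of the heat shock response, was slightly lower, at 32.0 and 29.4 FPKM in TTC28 KO against 35.8 and 36.1 FPKM in WT (log2 fold change -0.22, SE 0.0630, adjusted p = 0.00916). It did not pass without WT replicate 1 (adjusted p = 0.0537) or WT replicate 2 (0.0573). HSF2 was at 8.42 and 9.36 FPKM in TTC28 KO and 9.34 and 8.98 FPKM in WT, with overlapping groups and an adjusted p of 0.729. Transcript levels do not report the activity of these factors. The adaptor STIP1, known as HOP, was at 53.9 and 52.4 FPKM in TTC28 KO and at 59.8 and 58.2 FPKM in WT, and did not pass (log2 fold change -0.15, SE 0.0604, adjusted p = 0.0551). ST13, known as HIP, slows the release of ADP from HSP70. It was at 57.3 and 56.6 FPKM in TTC28 KO and at 48.5 and 51.5 FPKM in WT. Its log2 fold change was 0.19 (SE 0.0607, adjusted p = 0.0186), and other genes hold 30.7% of its 50-base words. ST13 did not pass without WT replicate 1 or without WT replicate 2.

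Of the 23 members that were not tested, 3 readthrough rows had 0 counts in all libraries, which does not show absence because reads of readthrough transcripts also match the parent genes. A further 12 had at most 30 counts over the 4 libraries, and 8 had more. DNAJC15, a mitochondrial J-domain protein, had 0 and 0 counts in TTC28 KO against 8 and 11 in WT. With the knockout group set to a floor of 3 counts, about the upper 95% limit of a count of 0, it was at least 6.19-fold lower in TTC28 KO. That bound takes the WT counts as they are, without their counting error. HSPA12A, a distant HSP70 relative, had 132 and 131 counts in TTC28 KO and 89 and 69 in WT, a scaled ratio of 1.70 (interval 1.39 to 2.09). For HSPA12B the counts were 65 and 67 in TTC28 KO and 41 and 36 in WT, a scaled ratio of 1.76 (interval 1.32 to 2.36). DNAJB13 had 21 and 12 counts in TTC28 KO and 3 and 7 in WT, a scaled ratio of 3.38 (interval 1.63 to 7.69). These intervals cover counting error only. With a filter of 0.1 FPKM, HSPA12A, HSPA12B and DNAJB13 passed the test, and DNAJC15 passed with no filter. DNAJB13 met the filter of 0.1 FPKM only through TTC28 KO (0.217 and 0.141 FPKM, against 0.0330 and 0.0740 FPKM in WT). The filter therefore chose it by its difference, and that pass adds no support.

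Genes that work with these chaperones but lie outside the rule were taken from lists. Of the 8 subunits of TRiC, the cytosolic chaperonin that folds actin and tubulin, 0 rose, 6 fell and 2 did not pass, with a median log2 fold change of -0.42. CCT5 was at 38.5 and 36.4 FPKM in TTC28 KO against 67.2 and 67.1 FPKM in WT (log2 fold change -0.84, SE 0.0619), and CCT6A was at 78.0 and 71.4 FPKM in TTC28 KO against 135 and 132 FPKM in WT (-0.84, SE 0.0658). TCP1, CCT4, CCT7 and CCT8 fell by 0.39, 0.39, 0.44 and 0.51 on the log2 scale. Of the 6 subunits of prefoldin, which delivers chains to TRiC, PFDN5 rose (0.51), 3 fell and 2 did not pass, with PFDN2 the lowest at -0.63. PFDN6, one of the 3, shares 24.5% of its exonic bases with RGL2 on the opposite strand. Without WT replicate 1 the prefoldin falls came to 1. Background rates are the 25.1% of tested genes that rose and the 25.2% that fell, and no test was made over the lists themselves.

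Of 16 tested HSP90 co-chaperones and tetratricopeptide adaptors, 3 rose, 6 fell and 7 did not pass. The 3 rises came to 1 without WT replicate 1, to 0 without WT replicate 2, and to 0 under total-count or per-length-sum scaling, where the falls came to 8 and 10. The largest change there was in FKBP4, a prolyl isomerase of steroid receptor complexes, at 19.5 and 19.0 FPKM in TTC28 KO and 31.7 and 32.3 FPKM in WT (log2 fold change -0.73, SE 0.0599, adjusted p = 7.25e-07). TOMM34, an adaptor of mitochondrial import, fell by 0.49 and AHSA1, which stimulates the ATPase of HSP90, by 0.28 on the log2 scale. Of 10 tested genes of mitochondrial folding and import, 0 rose, 4 fell and 6 did not pass, and the falls came to 2 without WT replicate 1. GRPEL1, the exchange factor of HSPA9, was at 11.8 and 12.5 FPKM in TTC28 KO and 20.4 and 19.5 FPKM in WT (log2 fold change -0.71, SE 0.0691, adjusted p = 2.89e-06), and HSCB, a J-domain partner of HSPA9 in iron-sulfur cluster assembly, fell by 0.41, with 20.6% of its exonic bases opposite CHEK2. HSCB did not pass without TTC28 KO replicate 2, WT replicate 1 or WT replicate 2. Of 8 tested genes known as further targets of HSF1, 2 rose, 4 fell and 2 did not pass. The collagen chaperone SERPINH1 was at 42.0 and 40.1 FPKM in TTC28 KO and 23.1 and 23.5 FPKM in WT (log2 fold change 0.82, SE 0.0604, adjusted p = 2.90e-07), and the polyubiquitin gene UBB (0.33) also rose, although UBB did not pass without WT replicate 2 (adjusted p = 0.0549) or under per-length-sum scaling. MRPL18 (-0.54), FKBP4, AHSA1 and CHORDC1 fell, the last 3 also being in the HSP90 list. Of the 8 ER chaperones, 3 rose, 2 fell and 3 did not pass, with a median of 0.04, and HSPA5 was among those that did not pass. Their rises came to 1 without WT replicate 1 or WT replicate 2 and to 0 under per-length-sum scaling, and their falls to 1 without TTC28 KO replicate 2 or WT replicate 2. HSF4 and HSBP1, the tested genes of the HSF family and its regulators, did not pass either, though the outcome moved without WT replicate 2. Both were called lower under per-length-sum scaling. HSBP1 was called in opposite directions, at -0.28 under that scaling and at 0.21 with the local median removed (adjusted p = 0.0318).

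**Figure D4:**
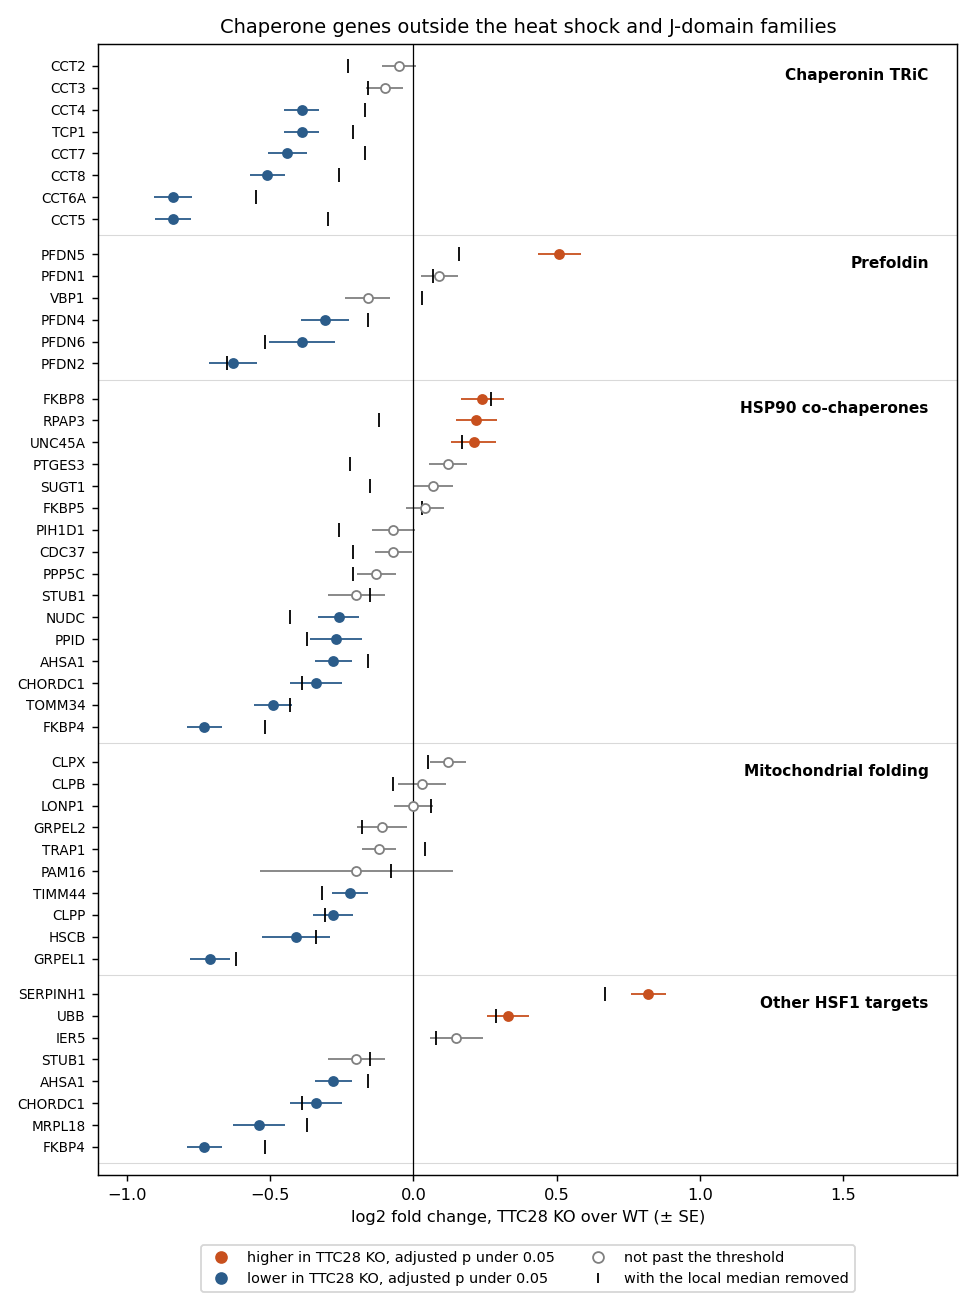
Log2 fold change of TTC28 KO over WT with its SE for the tested genes of 5 lists outside the heat shock and J-domain families. Filled points passed the threshold, open points did not, and black ticks give the value with the local median removed. All 8 TRiC subunits lie left of 0, while the other HSF1 targets run from FKBP4 at -0.73 to SERPINH1 at 0.82.

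Neighbouring genes had local medians away from 0 at some members, and each member was therefore also compared with its neighbours. The median log2 fold change of the 25 tested genes on each side was taken from each gene within the same fit. Of the 59 tested members, 17 were then higher and 14 lower, against 24.1% and 23.4% of all tested genes. Of the rises 14 were kept and of the falls 8. HSPB1 (0.94), DNAJB5 (0.88), BAG3 (0.75), HSPA8 (0.50) and HSPA1B (0.50) still rose, and HSPA9 (-0.73) and DNAJC2 (-0.45) still fell. The local median was 0.02 at HSPA9 and -0.02 at HSPB1. DNAJC22 lay among neighbours with a median of 0.34 and came to 1.10. Rises of DNAJC14, DNAJB14, HSPH1 and HSPA1A no longer passed, nor did the falls of DNAJC21, where the local median was -0.35, and of BAG5. HSP90AB1 lay among neighbours with a median of 0.27 and came to -0.10, which reverses its direction, and HSPD1 came to -0.18 (adjusted p = 0.0372). In TRiC, CCT5 came to -0.30 and CCT6A to -0.55, 5 of the 6 falls were kept, CCT7 no longer passed (adjusted p = 0.0561) and CCT2 was now called (-0.23). PFDN5 no longer passed either (0.16, adjusted p = 0.0868).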

How the data were processed

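RNA-seq of 4 H1299 libraries, 2 of TTC28 KO and 2 of WT cells, was aligned to hg38 with HISAT2 2.0.5, per the submitters' processing notes. The counter and its use of strand were not given in the sources used here. The authors deposited counts per gene and library, named as counts in the column headers and held as whole numbers. They also deposited FPKM values, which divide the counts by the listed gene length and a library size. The authors' own comparison columns were not used. All 58735 gene identifiers are in GENCODE release 29, which gave exon overlaps and transcripts.

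Tests were made on counts of genes that reached 1 FPKM in 2 or more libraries, with edgeR 4.0.16 under R 4.3.3 (quasi-likelihood test, TMM factors of 0.977 to 1.02, two-sided, no covariates), with Benjamini-Hochberg adjustment over 13079 genes and a threshold of 0.05. The SE of a log2 fold change comes from that fit and had a median of 0.0886. Depth, at 25120500 to 28885443 counts per library, limits mainly low genes. With 2 libraries a group the smallest exact permutation p is 0.333, so none was computed. Values in full are given for members called and changed by 0.5 or more on the log2 scale, the 8 with the highest mean FPKM, and 9 fixed genes (HSF1, HSF2, STIP1, ST13, HSPA1A, HSPA1B, HSPB1, DNAJB1, BAG3). Other members named with values in every library were chosen after their values were seen. Members and lists were chosen with earlier results of these data known. A listed gene and a marker are not reported here.

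Alternatives were median-of-ratios, total-count and per-length-sum scaling, other filters, DESeq2 1.42.0, protein-coding genes only, leaving out each library, a replicate block and removal of the local median. The edgeR, DESeq2 and local-median fits were tested on simulated counts. That simulation changed 200 genes, against 6581 called here, so it cannot show how the fits behave with so many changes. The labels do not state that replicate numbers pair libraries. Deviations of same-numbered libraries correlated at -0.00144 across 13079 genes, which cannot exclude a shared batch acting on some genes.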

Additional observations from a re-analysis of the deposited data

How the results depend on the processing

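Over 57 named genes and 14 settings, 693 of 790 values kept direction and side of the threshold, 58 lost and 22 gained the threshold, and 17 changed sign. All genes called (6581) came to 4346 with a filter of 5 FPKM, 2169 higher and 2177 lower; the filter leaves fewer genes to test. Per-length-sum scaling gave 1924 higher and 5304 lower. Members higher (18) came to 9 under per-length-sum scaling, and members lower (10) to 17 under total-count and 22 under per-length-sum scaling. The median over members (0.04) came to -0.02 under total-count scaling, -0.12 under per-length-sum scaling, 0.03 and 0.05 with filters of 0.1 and 5 FPKM and -0.03 with the local median removed; the cause was not tested.

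Leaving out each library gave 13 to 19 members higher, 6 to 12 lower and a median of 0.02 to 0.07. With the replicate block, 19 members were higher and 11 lower, and HSP90AB1 and STIP1 passed; no call was lost. Because the numbers mark no shared culture in the labels, this pairing is a setting only.

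Signs changed for genes that did not pass, with 1 exception that had. With the local median removed, DNAJC14, called before, came to -0.02, HSP90AB1 to -0.10, HSPD1 to -0.18, HSPE1 to -0.17 and HSPA14 (ENSG00000187522) to 0.03. Under per-length-sum scaling HSPD1 came to -0.06, HSPE1 to -0.04 and HSPA4L to -0.10, and under total-count scaling HSPA4L to -0.00. HSPA14 (ENSG00000187522) came to 0.00 among protein-coding genes. Leaving out a library changed the sign of BAG1 (0.04 and 0.02), HSF2 (0.04), HSPE1 (-0.10 and -0.02, over a range of -0.10 to 0.31) and HSPA14 (ENSG00000187522, 0.13 and 0.02, over a range of -0.14 to 0.13). Depth limits the members under 1 FPKM, whose calls depend on the filter.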
